A study of Mus musculus with 18 samples.

Results

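Zbtb12, Zbtb16, Zbtb18 and Zbtb20 were followed across the cell types of the embryonic mouse forebrain and across WT, Het and KO animals of a Myt1l mutant line. They are the rows that carry these symbols in the gene tables, 4 of 55335 genes. Nuclei came from the forebrain of embryos at embryonic day 14 (E14), all of the strain MYT1L S710fsX on a C57BL/6 background from crosses of Het parents, in which the KO carries a frameshift at residue 710 on both alleles of Myt1l, the Het on 1 allele and the WT on neither. The 9 animals (3 per genotype) were each measured in 2 runs of single-nucleus RNA-seq by combinatorial barcoding, and the 2 runs of an animal were summed, so that n = 3 animals per genotype throughout. The mutation is present in every cell of the Het and KO embryos, and the frameshifted transcript can still be counted, so the level of Myt1l RNA does not check the labels. In run 1 the genotype tag reads WT for all 9 libraries, also for those whose titles give Het or KO. The titles were used.

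These genes encode BTB zinc finger proteins, transcription factors that pair through a BTB domain, read DNA through zinc fingers and mostly repress their targets by recruiting corepressors. Zbtb18 (RP58) is a repressor of migrating and differentiating cortical excitatory neurons. Zbtb20 is best known from the hippocampal primordium, cortical progenitors and astrocyte formation, Zbtb16 (PLZF) from progenitor maintenance and from subsets of neurons, and Zbtb12 is the least studied of the set. MYT1L itself is a zinc finger factor of postmitotic neurons that binds sites with an AAGTT core and has been described mainly as a repressor.

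On the GRCm38 (mm10) assembly Zbtb12 lies at chr17:34879483-34896867 on the plus strand, Zbtb16 at chr9:48654297-48836222 on the minus strand, Zbtb18 at chr1:177442351-177450764 on the plus strand and Zbtb20 at chr16:42875881-43642602 on the plus strand. The loci span 17.4, 182, 8.41 and 767 kb with 2, 2, 12 and 21 annotated transcripts, respectively. Zbtb20 holds 9 other annotated genes within its span (0 to 1764 UMIs each over all nuclei, against 920869 for Zbtb20). Zbtb18 overlaps at its 5′ end with the antisense gene Gm26801 (6121 UMIs, against 56895), and Zbtb12 overlaps C2 and Gm20547 on the other strand (1054 and 149 UMIs, against 3767). The sources used here do not give whether counting used strand, so Zbtb12 and Zbtb18 may share reads with these partners.

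RefSeq (GRCm38.p6) promoter windows, 250 bases before to 50 after an annotated start, were found for 3 of the 4 genes, 5 windows for Zbtb18 and 1 each for Zbtb20 and Zbtb12. They were searched for the MYT1L core, AAGTT or its reverse complement AACTT, and matches are in capitals. Of the Zbtb18 windows the first and second along the gene are printed, since the first holds no match and the second the most. The Zbtb20 window is chr16:43247034-43247333, a start inside the gene's span. The first Zbtb18 window is chr1:177442101-177442400, at the 5′ end of the gene, and the second is chr1:177444403-177444702, at a start inside it. The Zbtb12 window is chr17:34894309-34894608. All are on the plus strand, written 5′ to 3′.
Zbtb20: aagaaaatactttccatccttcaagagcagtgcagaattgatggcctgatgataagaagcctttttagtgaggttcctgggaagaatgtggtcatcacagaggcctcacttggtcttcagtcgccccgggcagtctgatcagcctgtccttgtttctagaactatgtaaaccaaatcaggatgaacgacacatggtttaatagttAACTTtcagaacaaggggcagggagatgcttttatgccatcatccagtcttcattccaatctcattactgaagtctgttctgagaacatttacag
Zbtb18 first: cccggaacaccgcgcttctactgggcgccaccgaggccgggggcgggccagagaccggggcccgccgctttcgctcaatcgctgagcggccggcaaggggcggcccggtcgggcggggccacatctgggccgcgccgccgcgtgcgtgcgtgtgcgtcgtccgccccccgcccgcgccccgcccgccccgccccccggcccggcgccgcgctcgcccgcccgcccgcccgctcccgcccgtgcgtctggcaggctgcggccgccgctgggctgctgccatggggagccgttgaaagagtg
Zbtb18 second: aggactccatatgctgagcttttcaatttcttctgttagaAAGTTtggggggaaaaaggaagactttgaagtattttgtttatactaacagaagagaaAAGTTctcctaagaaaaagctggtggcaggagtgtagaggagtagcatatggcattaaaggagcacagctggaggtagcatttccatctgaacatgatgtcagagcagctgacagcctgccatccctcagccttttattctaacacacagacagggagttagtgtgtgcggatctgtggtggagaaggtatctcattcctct
Zbtb12: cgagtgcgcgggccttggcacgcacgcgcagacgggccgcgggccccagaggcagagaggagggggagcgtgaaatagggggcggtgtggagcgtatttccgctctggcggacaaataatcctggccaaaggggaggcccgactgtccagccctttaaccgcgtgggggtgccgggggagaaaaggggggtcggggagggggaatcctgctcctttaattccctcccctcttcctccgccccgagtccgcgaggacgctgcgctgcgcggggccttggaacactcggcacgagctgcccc
The Zbtb20 window held 1 match, 45 bases before the start. The Zbtb12 window held none. Of the 5 Zbtb18 windows 4 held a match, all but the first. The second held 2, as did a window that overlaps nearly all of it and holds the same matches, and the other 2 held 1 each. Of 32851 such windows over all genes, 39.3% held a match, so a match is common. GC content was 43.3% in the Zbtb20 window, 81.7% and 43.7% in the 2 Zbtb18 windows printed and 68.7% in the Zbtb12 window.

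After filtering, 195951 nuclei remained, 14984 to 26223 per animal with 43452308 to 74154254 UMIs (unique molecular identifiers, counts of captured transcripts). They fell into 30 clusters, built without the 4 genes and Myt1l, and 26 clusters with at least 20 nuclei in each animal were tested. Clusters were grouped into classes by marker lists, written as "-like", and 17.1% of nuclei stayed unnamed. The 7 classes tested were excitatory neuron-like (52540 nuclei), Cajal-Retzius-like (2115), inhibitory neuron-like (49237), excitatory intermediate progenitor-like (15267), radial glia-like (30341), choroid plexus and hem-like (2665, led by the hem genes Rspo2, Rspo1 and Lmx1a) and inhibitory progenitor-like (9151). All 744 nuclei of a diencephalic neuron-like cluster came from 1 animal, Het 1, and were not compared. The 2 runs shared 155 barcodes within an animal and 1278 between different animals. Levels are CPM, the UMIs of a gene in the summed nuclei of an animal scaled to a common total. They are compared within a gene and not between genes, and an increase in every nucleus and a larger share of expressing nuclei cannot be told apart in them.

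Zbtb20 was high in progenitor-like and hem-like nuclei and lower in inhibitory and excitatory neuron-like nuclei. In WT animals it reached 6855 ± 279 CPM (SD, n = 3) in choroid plexus and hem-like nuclei. These hem-like nuclei also held Myt1l RNA at 868 CPM. Radial glia-like, excitatory intermediate progenitor-like and inhibitory progenitor-like nuclei held it at 60.1, 225 and 274 CPM. The hem-like nuclei are therefore not counted as progenitors here. Radial glia-like nuclei held 3225 ± 191 CPM and inhibitory progenitor-like nuclei 3115 ± 195 CPM, with overlapping ranges. Excitatory intermediate progenitor-like nuclei (1942 ± 58.0 CPM) and Cajal-Retzius-like nuclei (1793 ± 112 CPM) also overlapped. Inhibitory neuron-like nuclei held 994 ± 60.8 CPM, and excitatory neuron-like nuclei held the least, 339.6 ± 11.6 CPM, 20.2-fold below the hem. Over the 26 clusters the spread was 59.1-fold, from cluster 18 (the hem-like nuclei) down to cluster 22, excitatory neuron-like nuclei led by Hs3st3b1, Rgs6, Nfe2l3, Dync1i1 and Hs3st4, at 116 ± 9.64 CPM. Hs3st4 and Nfe2l3 are deep-layer genes. Unnamed cluster 6, led by Otx2os1, Gm29478, Ano1, Otx2 and Egfr, held 5318 CPM and is in none of these classes.

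By class mean, and not by cluster, Zbtb18 ran the other way along the excitatory lineage. Over the 26 clusters Pearson's r of log2(CPM + 1) in WT between Zbtb18 and Zbtb20 was -0.02. Among excitatory neuron-like clusters, cluster 22 was the lowest for both genes, with Zbtb18 at 133 CPM. The mean WT level of Zbtb18 was highest in excitatory neuron-like nuclei (199 ± 14.8 CPM). Excitatory intermediate progenitor-like nuclei (179 ± 1.03 CPM) and the hem-like nuclei (170 ± 28.2 CPM) followed. The hem-like range, 141.5 to 198 CPM, overlapped that of the intermediate progenitors and that of excitatory neuron-like nuclei, 183 to 212 CPM. Inhibitory progenitor-like nuclei (86.4 CPM) and radial glia-like nuclei (75.8 CPM) overlapped further down, and Cajal-Retzius-like (42.9 CPM) and inhibitory neuron-like nuclei (30.3 CPM) held the least, 6.55-fold below the excitatory neurons. By cluster the highest levels were 269 ± 5.52 CPM in cluster 20, led by Unc5d and Svet1, genes of migrating upper-layer neurons, and 239 ± 18.7 CPM in cluster 16, also excitatory neuron-like. The lowest was 18.6 ± 8.85 CPM in the unnamed cluster 5, led by Car10, Samd3 and Pappa2, 14.5-fold below cluster 20.

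Zbtb16 was concentrated in a few inhibitory clusters. The class mean of inhibitory neuron-like nuclei in WT was 64.7 ± 11.9 CPM, above inhibitory progenitor-like (27.8 CPM) and excitatory intermediate progenitor-like nuclei (27.7 CPM), which overlapped. Radial glia-like (12.02 CPM), hem-like (7.90 CPM) and excitatory neuron-like nuclei (7.81 CPM) followed, and Cajal-Retzius-like nuclei held 4.49 CPM, 14.4-fold below the inhibitory neurons. Within the inhibitory class 3 of the 8 clusters carried the signal. Cluster 0, led by Nxph2, Dgkg and Dpp10, held 221 ± 20.8 CPM. Cluster 8, led by Sp8 and Dlx6os1, held 136 ± 13.9 CPM, and cluster 1, led by Lhx6 and Erbb4, held 71.5 ± 13.8 CPM. Sp8 marks interneurons of the caudal ganglionic eminence and Lhx6 those of the medial ganglionic eminence. These 3 ranges did not overlap with each other or with that of the next cluster, and the lowest level, 2.39 CPM in cluster 20, was 92.5-fold below that of cluster 0.

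Zbtb12 showed no such pattern. Its WT mean lay between 6.22 CPM in hem-like and 8.04 CPM in inhibitory progenitor-like nuclei, a 1.29-fold spread, and all 6 neighbouring pairs of classes and all 25 neighbouring pairs of clusters overlapped. The counts behind these levels were small, from 0 UMIs in 1 animal's Cajal-Retzius-like nuclei to 190 UMIs in an animal's excitatory neuron-like nuclei, so only large differences could have been seen.

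**Figure D1:**
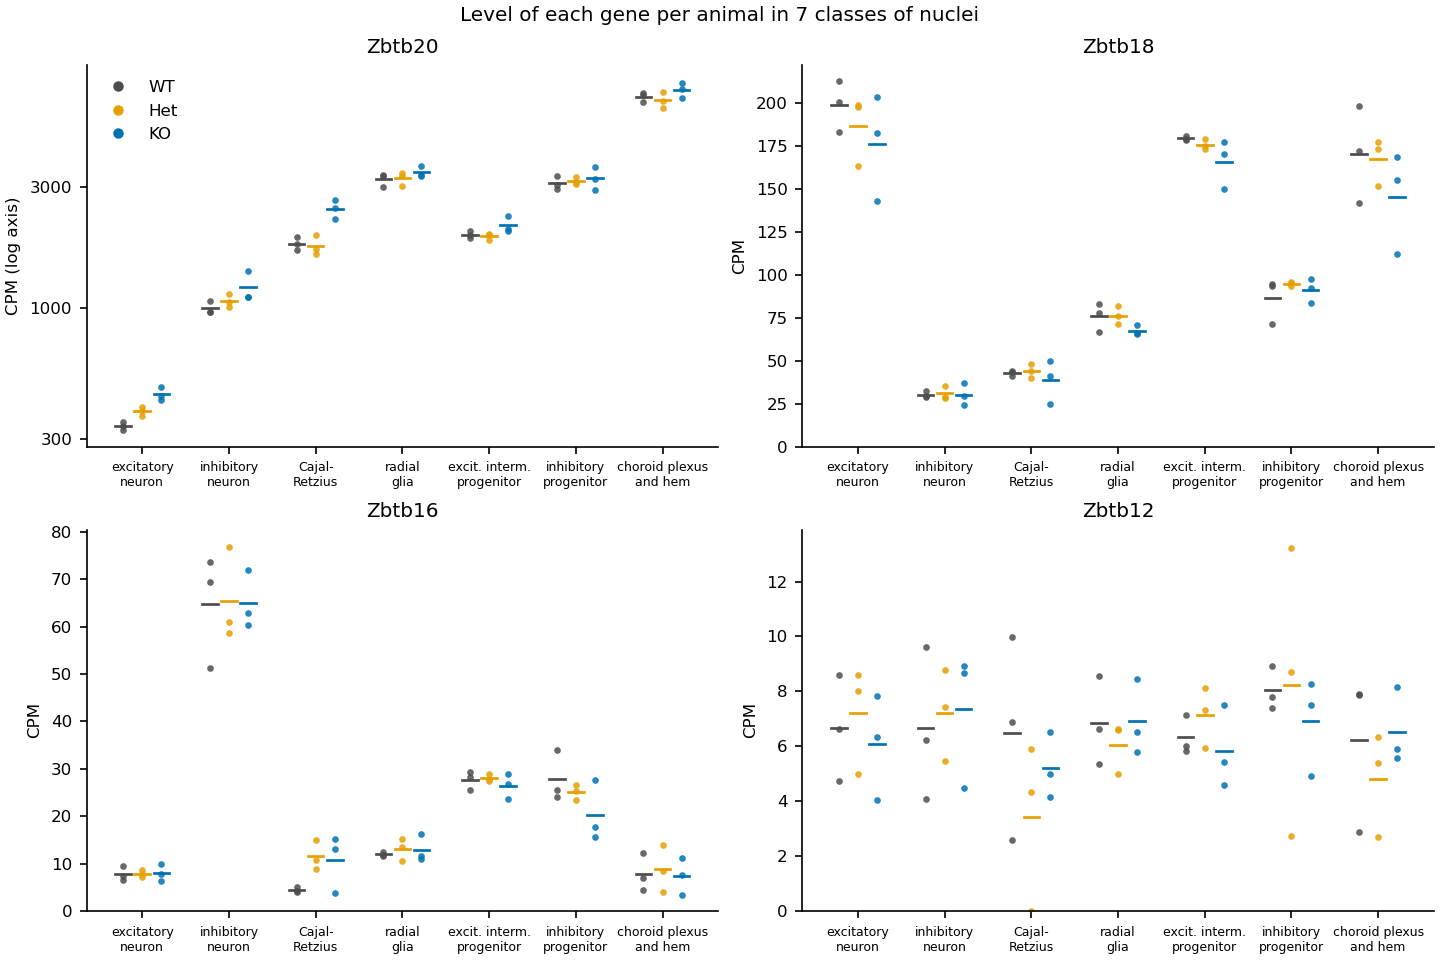
CPM per animal (points) and group mean (short lines) of each gene in 7 classes of nuclei, with WT in grey, Het in orange and KO in blue. The Zbtb20 axis is logarithmic, the others start at 0. In excitatory neuron-like nuclei the 3 Zbtb20 groups are separate, with WT at 328 to 352 CPM and KO at 430.1 to 484 CPM, while the Zbtb18, Zbtb16 and Zbtb12 groups overlap there.

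**Figure D2:**
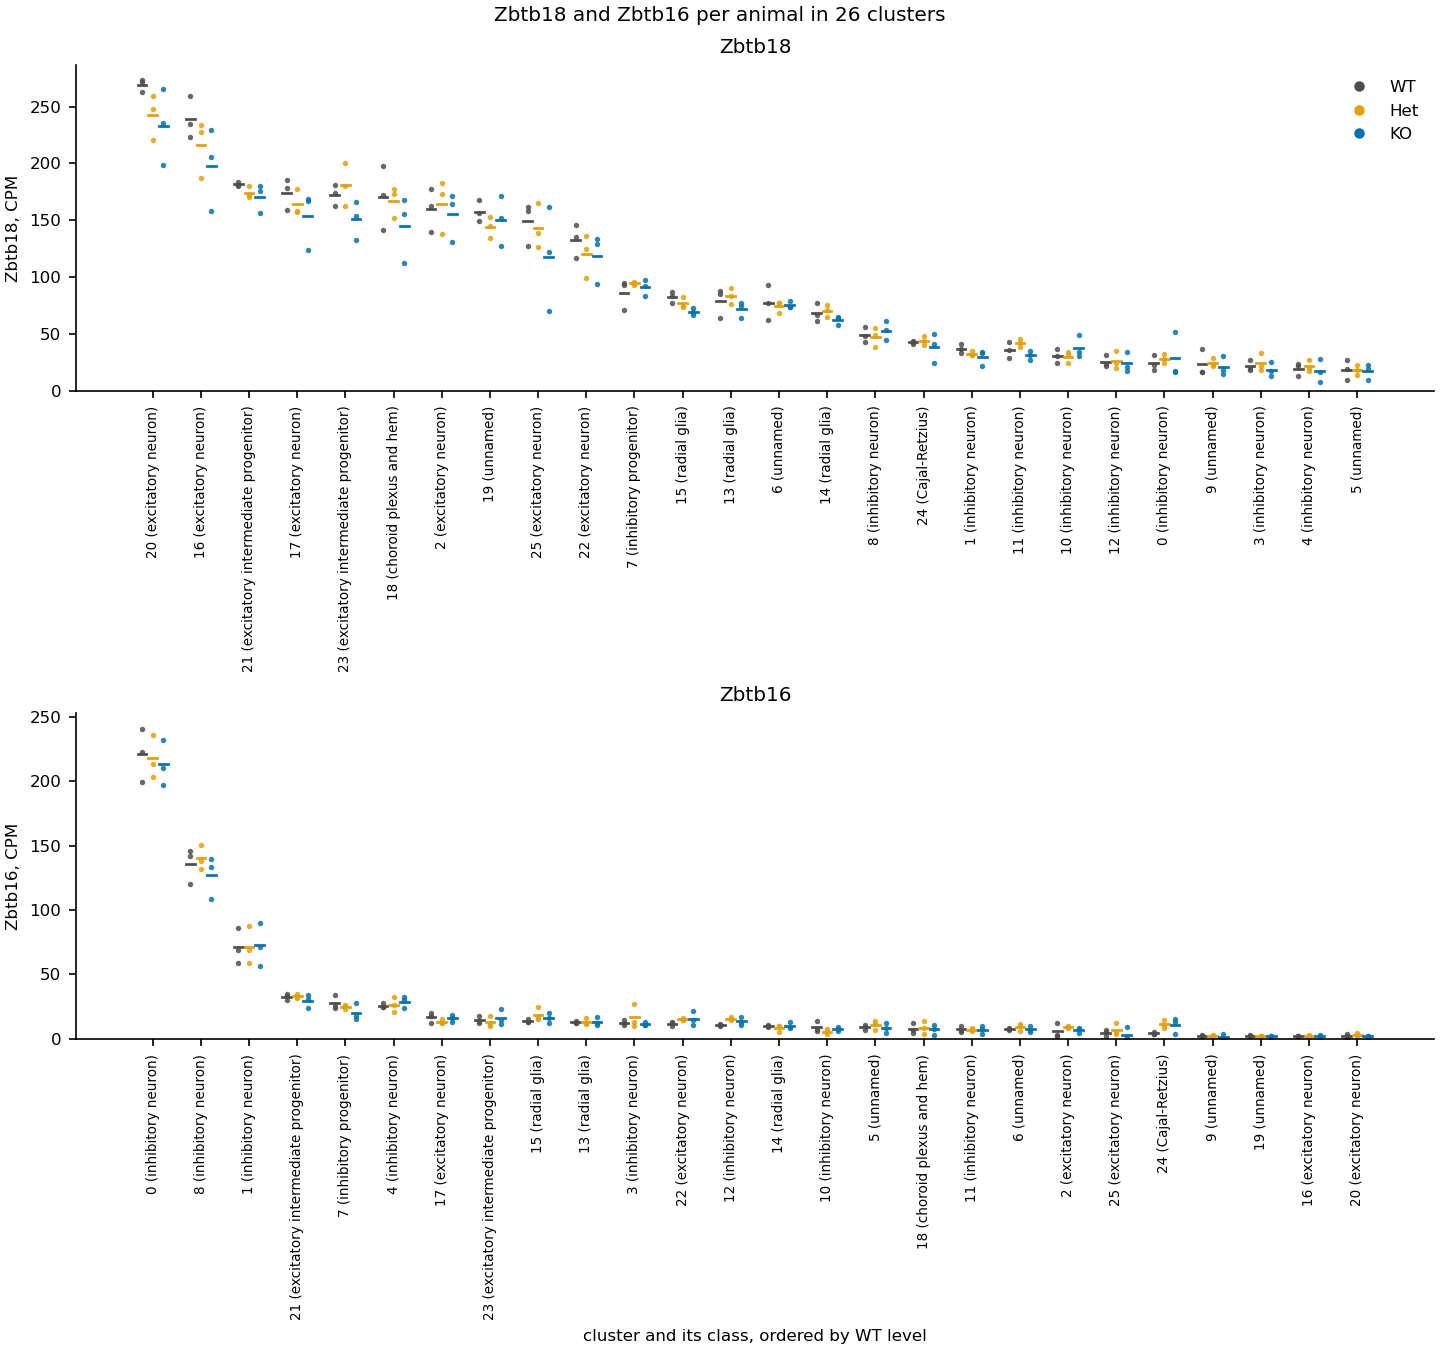
CPM per animal (points) and group mean (short lines) of Zbtb18 and Zbtb16 in 26 clusters ordered by WT mean, labelled with cluster number and class. Zbtb18 is spread over many excitatory and progenitor clusters, with cluster 20 on top at 269 CPM, whereas Zbtb16 drops from 221 to 71.5 CPM over the first 3 clusters in WT and has WT means at or below 32.5 CPM in the rest.

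The genes whose WT levels most resembled each member over the 26 clusters were ranked by Pearson's r of log2(CPM + 1), among 10005 genes reaching 20 CPM in a cluster. For Zbtb18 they included Bcl7a, a subunit of the BAF chromatin remodelling complex (r = 0.93), and Gm37706 (r = 0.93). For Zbtb20 they were Zeb1, a repressor of progenitors (r = 0.85), Mnat1 (r = 0.85) and Ndufs5 (r = 0.85). Zbtb16 came closest to Car2, 1110004F10Rik and Arl5a (r = 0.80, 0.80 and 0.79), and Zbtb12, which itself stayed under 20 CPM in every cluster, to Gna11, Slc39a6 and Mcl1 (r = 0.63, 0.63 and 0.62). Among the members themselves the strongest relation was r = -0.33, between Zbtb16 and Zbtb18. Zbtb20 ran opposite to Myt1l (r = -0.69), while the other 3 lay between -0.15 and -0.11 against it. All clusters share the same libraries, and these values are descriptions.

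KO and Het animals were next compared with WT in each class, to ask how the loss of MYT1L bears on these genes. A gene was called at an adjusted p under 0.05 (edgeR's quasi-likelihood test, two-sided, Benjamini-Hochberg over all genes tested in the class) and a log2 change beyond 0.2. Both contrasts use the same WT animals. Where all KO animals are said to lie above all WT animals, the share of all genes with that order was not counted. That order alone is a description. The replicates are separate embryos of mixed sex from several litters. The sources used here do not tie an embryo to its litter or sex, so neither was a term, and p-values rest on the spread among 3 animals per genotype.

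Zbtb20 rose in KO excitatory neurons. Its level in excitatory neuron-like nuclei was 328, 352 and 339 CPM in WT 1 to 3, 402, 390.1 and 372 CPM in Het 1 to 3, and 484, 446 and 430.1 CPM in KO 1 to 3. The 3 genotypes did not overlap, with the Het animals between the others, an order that 0.502% of genes tested in this class had in the same direction. The KO change was 0.44 on the log2 scale (SE 0.068, 1.36-fold, adjusted p = 0.0120), in a class where 0.679% of 18717 genes tested were called. The Het change was 0.21 (SE 0.068, unadjusted p = 0.0098, adjusted p = 1.00), not called, and no gene was called in that contrast in any class (0%; 2.73% of tests had an unadjusted p under 0.05, and DESeq2 called 0). With the replicate block 1 gene was called higher and 8 lower over the 7 classes (5.12% with an unadjusted p under 0.05), and no member was among them. The Het mean stood at 42.4% of the step from WT to KO.

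The change in the excitatory class kept its direction in every alternative run, and its call did not. The call was lost without KO 2 (log2 0.44, adjusted p = 0.061), without WT 1 (0.40, 0.064) or without WT 3 (0.43, 0.077), and in run 1 alone (0.36, 0.67), though in both runs every KO animal was above every WT animal (run 1, KO 464 to 501 against WT 337 to 428 CPM; run 2, KO 416 to 476 against WT 325 to 336 CPM). A coarser clustering, whose excitatory class held 2 clusters, gave 0.70 (adjusted p = 0.0079).

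Markers of classes richer in Zbtb20 were summed in the same nuclei. The summed level of 10 radial glia markers was 167 to 181 CPM in WT and 154 to 164 CPM in KO excitatory neuron-like nuclei (3 of 10 higher in KO, none at 0), against 1782 to 2033 CPM in WT radial glia-like nuclei. The 7 choroid plexus and hem markers summed to 3.75 to 4.39 CPM in WT and 3.24 to 4.36 CPM in KO. The 10 intermediate progenitor markers summed to 219 to 248 CPM in WT and 229.7 to 253 CPM in KO (7 of 10 higher in KO), and the 13 inhibitory neuron markers to 139 to 218 CPM in WT and 114 to 288 CPM in KO (5 of 13 higher). The part of these markers in the Zbtb20 difference was not tested. Cluster 22, the lowest in Zbtb20, made up 16.3 to 18.8% of the excitatory nuclei in WT and 14.1 to 16.8% in KO. With the WT mix of clusters given to every animal, an alternative chosen after seeing the data, the log2 ratio of KO to WT means was 0.38, against 0.42 with each animal's own mix. The Het mean was 371 CPM with the WT mix, against 388 CPM with its own. The WT mean was 339.8 CPM, against 339.6 CPM.

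Inhibitory neuron-like and Cajal-Retzius-like nuclei had higher Zbtb20 in KO as well, without a call. In inhibitory neuron-like nuclei the level was 959.8, 1064 and 958 CPM in WT, 1053, 1127 and 1009 CPM in Het, and 1099, 1402 and 1104 CPM in KO. KO animals lay above all WT animals, with KO 2 far above the others. The KO change was 0.30 (SE 0.108, adjusted p = 0.80), in a class where 0.0108% of genes were called. It ranged from 0.16 without KO 2 to 0.38 without KO 3. The intermediate progenitor markers in these nuclei summed to 60.9 to 67.4 CPM in WT and 57.6 to 88.6 CPM in KO (8 of 10 higher), and the radial glia markers to 254 to 263 CPM in WT and 232 to 252 CPM in KO (3 of 10 higher), and their part in the Zbtb20 difference was not tested. In a fit blocked on replicate number, which the pairing check allowed in this class, it was called (0.30, SE 0.053, adjusted p = 0.0229), where 0.498% of genes were, and the call in the excitatory class stayed (0.44, adjusted p = 5.0e-05), where 5.94% were. The Het change was 0.12 (SE 0.108, adjusted p = 1.00).

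In Cajal-Retzius-like nuclei, early reelin-secreting neurons of the marginal zone, Zbtb20 was 1690.4, 1912 and 1778 CPM in WT, 1625, 1705 and 1929.8 CPM in Het, and 2482, 2670.3 and 2237 CPM in KO. KO animals stood apart from the rest, and Het animals overlapped WT. The KO change was 0.46 (SE 0.101, unadjusted p = 0.00018, adjusted p = 0.063), not called, in a class where 0.2% of genes were called. Blocked on replicate number it was (adjusted p = 0.0137), where 0.901% of genes were, but the numbers did not pair the animals in this class. The Het change was -0.02 (SE 0.101). The class held 159 to 324 nuclei per animal. Its summed hem markers were 47.2 to 76.6 CPM in WT and 77.3 to 107 CPM in KO (4 of 7 higher, Ttr at 0 in all animals), and their part in the Zbtb20 difference was not tested.

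Progenitor classes and the hem-like nuclei, where Zbtb20 is high, had small log2 changes. In CPM their group means differed by more than those of excitatory neuron-like nuclei. The means were 3225 in WT and 3441 in KO radial glia-like nuclei, against 339.6 and 453 in excitatory neuron-like nuclei. Radial glia-like nuclei held 3005, 3317 and 3353 CPM in WT, 3035, 3318 and 3425 CPM in Het, and 3356, 3638 and 3328 CPM in KO, and the groups overlapped (KO change 0.11, adjusted p = 1.00). In excitatory intermediate progenitor-like nuclei the level was 1886, 2002 and 1939 CPM in WT and 2038, 2306 and 2019 CPM in KO. Every KO animal lay above every WT animal, an order not counted over all genes, with a KO change of 0.15 (SE 0.070, adjusted p = 1.00). This change was 0.07 without KO 2 and -0.010 in run 1 alone. KO changes were 0.07 (SE 0.083) in inhibitory progenitor-like and 0.11 (SE 0.095) in hem-like nuclei. In these 4 classes 0% of genes were called in KO by edgeR (347 to 518 genes per class had an unadjusted p under 0.05), and DESeq2 called 0.

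The KO change in excitatory neuron-like nuclei was compared directly with that in 3 other classes, in models that keep the animal as a term. It exceeded that in intermediate progenitor-like nuclei by 0.30 (SE 0.066, unadjusted p = 0.00019, adjusted p = 0.060), not called, where 0.24% of genes were. It differed from that in inhibitory neuron-like nuclei by 0.15 (SE 0.090, adjusted p = 0.97; 0.00506% called) and from that in Cajal-Retzius-like nuclei by -0.04 (SE 0.105, adjusted p = 1.00; 0.203% called). None of the other 3 genes was called in these 3 comparisons. Over all 12 tests of members 2 had an unadjusted p under 0.05, the second being Zbtb16 against Cajal-Retzius-like nuclei (-1.36, SE 0.54, unadjusted p = 0.0145).

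**Figure D3:**
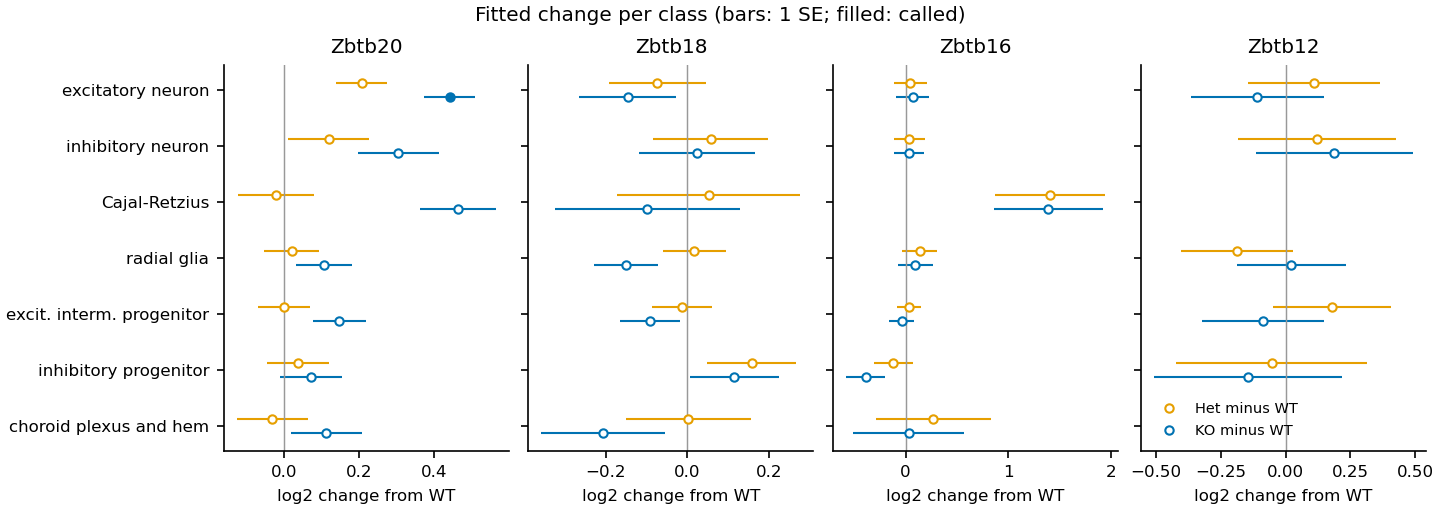
Fitted log2 change from WT with 1 SE for Het (orange) and KO (blue) in each class, for each gene, filled where called. Each panel has its own scale. The filled point is Zbtb20 in KO excitatory neuron-like nuclei at 0.44, and the largest values are those of Zbtb16 in Cajal-Retzius-like nuclei, near 1.4 with bars of 0.53.

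At the level of clusters the KO change of Zbtb20 was positive in 26 of 26, from 0.03 to 1.17 with a median of 0.26. These clusters come from the same animals and are not separate evidence. It was called in 3 clusters, where 0.215% of all gene by cluster tests in KO were called. Calls were spread unevenly over clusters. In cluster 22, 184 genes were called higher and 78 lower of 12450 tested. Cluster 0 had 35 higher and 24 lower of 11201, and cluster 5 had 20 higher and 1 lower of 11664. With the replicate block Zbtb20 was called in 10 clusters (0, 2, 3, 4, 5, 16, 17, 19, 22 and 24), where 1.01% of tests were, and DESeq2 called it in 8, where 0.236% were. Cluster 24 is the whole Cajal-Retzius-like class, where the numbers did not pair the animals. Pairing was checked in classes and not in clusters. In cluster 22 the block called 584 genes higher and 353 lower.

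The largest change was in cluster 22, the Hs3st4 and Nfe2l3 neurons in which WT levels are lowest. The study, on the same samples, already names Zbtb20 among autism-linked genes strongly disturbed in deep-layer excitatory neurons, so this is not a separate observation. There Zbtb20 was 127, 110.2 and 110.5 CPM in WT, 186, 135 and 141 CPM in Het, and 276, 239.7 and 255 CPM in KO. The 3 genotypes did not overlap. In KO it changed by 1.17 (SE 0.108, 2.25-fold, adjusted p = 0.000205), and it was called in all 13 alternatives run on it. The Het change was 0.43 (SE 0.109, unadjusted p = 0.0014, adjusted p = 1.00). It was called with the replicate block alone (0.42, SE 0.075, adjusted p = 0.0274), where 0.0137% of Het cluster tests were called. In this cluster the block called 5 genes higher and 2 lower of 12450 in Het. Radial glia markers in this cluster summed to 155 to 165 CPM in WT and 147 to 161 CPM in KO (7 of 10 higher in KO), and the 10 intermediate progenitor markers to 119 to 131 CPM in WT and 111 to 148 CPM in KO (7 of 10 higher). The 13 inhibitory neuron markers summed to 101 to 245 CPM in WT and 109 to 505 CPM in KO (8 of 13 higher), against 13358 to 16169.7 CPM in WT inhibitory neuron-like nuclei, and the part of these markers in the difference was not tested.

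Cluster 5, unnamed and led by Car10, held 481, 476.5 and 439 CPM in WT, 510.2, 555 and 504 CPM in Het, and 763, 687 and 706 CPM in KO. The 3 genotypes did not overlap. In KO it changed by 0.65 (SE 0.085, adjusted p = 0.0042), and it was lost in run 1 alone (0.35, adjusted p = 0.98), where an animal held as few as 23 nuclei.

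Cluster 0, the Nxph2 inhibitory neurons with the highest Zbtb16, held Zbtb20 at 424, 453 and 393 CPM in WT, 469, 498 and 480.1 CPM in Het, and 638, 688 and 544 CPM in KO. Here too the genotypes were separate and the Het animals between. In KO it changed by 0.59 (SE 0.099, adjusted p = 0.00995), and the call was lost without KO 2 (0.50, 0.051), WT 1 (0.58, 0.059) or WT 3 (0.54, 0.085) and in run 1 alone (0.43, 0.39). In this cluster the 10 excitatory neuron markers summed to 754 to 811 CPM in WT and 712 to 1302 CPM in KO (8 of 10 higher), the intermediate progenitor markers to 41.8 to 69.97 CPM in WT and 40.03 to 109 CPM in KO (7 of 10 higher) and the radial glia markers to 181 to 196 CPM in WT and 145 to 196 CPM in KO (2 of 10 higher), and their part in the difference was not tested. In cluster 5 the sums of these 3 lists overlapped between WT and KO, with 4, 5 and 4 of 10 markers higher. Among the other excitatory clusters cluster 16 had a fitted change of 0.45 (SE 0.101, adjusted p = 0.056) and the Unc5d cluster 20 one of 0.12 (SE 0.072, adjusted p = 0.97). Clusters 2 (0.50, SE 0.119, adjusted p = 0.16), 17 (0.42, SE 0.098, adjusted p = 0.063) and 25 (0.37, SE 0.172) were not called either.

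In Het animals the change of Zbtb20 was positive in 21 of 26 clusters, and 0 were called with edgeR (3 had an unadjusted p under 0.05) or DESeq2. The Het mean lay between those of WT and KO in 17 of 26 clusters, an order seen in 38.5% of all gene by cluster tests. Each Het animal lay above all WT and below all KO animals in 3, clusters 0, 5 and 22, as in 0.148% of all gene by cluster tests.

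**Figure D4:**
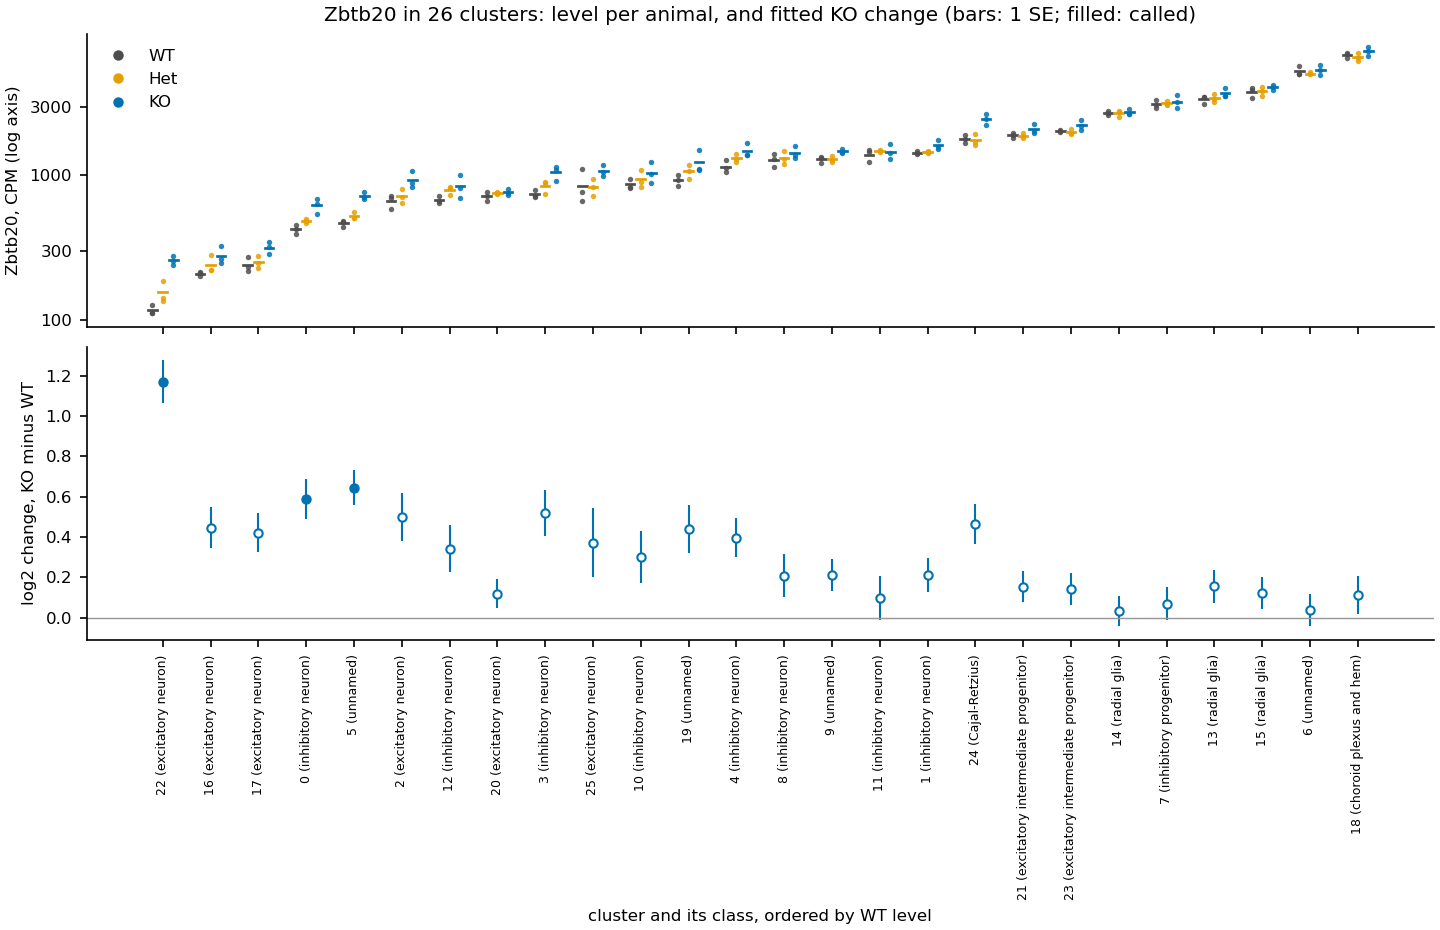
Zbtb20 in 26 clusters ordered by WT level. Above, CPM per animal (points) and group mean (short lines) on a logarithmic axis. Below, the fitted log2 KO change with 1 SE, filled where called. The changes are largest at the left, where WT levels are low (1.17 in cluster 22 at 116 CPM), and small at the right (0.11 in cluster 18 at 6855 CPM).

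Across the 26 clusters the KO change ran opposite to the WT level of Zbtb20 (Pearson's r = -0.80, Spearman's rho = -0.79) and with the WT level of Myt1l (r = 0.53, rho = 0.60). WT values enter both axes of the first relation. The WT levels of Zbtb20 and Myt1l themselves ran opposite (r = -0.69), so the second relation is not separate from the first. All clusters share libraries, and these are descriptions.

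Zbtb18 was not called in any class or cluster in either contrast with edgeR or DESeq2 (1 of 26 clusters in KO and 0 in Het had an unadjusted p under 0.05). In excitatory neuron-like nuclei, where it is highest, it was 183, 200.4 and 212 CPM in WT, 163, 198 and 199 CPM in Het, and 143, 203 and 183 CPM in KO. The groups overlapped, KO 1 was the lowest, and the replicate 1 animal was the lowest in each genotype. The KO difference was -0.15 (SE 0.118, adjusted p = 0.69), and ranged from -0.28 without KO 2 to -0.02 without KO 1. The KO value was negative in 22 of 26 clusters, with a median of -0.11. The clusters come from the same animals, so this count is not separate evidence. In cluster 16 the levels were 223, 235 and 259.7 CPM in WT, 187, 234 and 228 CPM in Het, and 158, 229.7 and 206 CPM in KO, which overlapped. That change was -0.24 (SE 0.117, adjusted p = 0.46). It was called lower with the replicate block (-0.25, SE 0.066, adjusted p = 0.0248). The block called 361 genes higher and 208 lower of 14094 in this cluster, against 66 and 19 without it.

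Zbtb16 was not called in either contrast with edgeR or DESeq2 in the 7 classes and 21 clusters that kept it (1 cluster in KO and 2 in Het had an unadjusted p under 0.05). In inhibitory neuron-like nuclei it was 51.2, 73.6 and 69.4 CPM in WT, 58.6, 76.8 and 61.0 CPM in Het, and 60.3, 71.9 and 62.9 CPM in KO, with a KO change of 0.04 (SE 0.148, adjusted p = 0.99). In cluster 0 it was 199, 240.5 and 222 CPM in WT and 197, 232 and 209.9 CPM in KO, so Zbtb16 overlapped in the cluster where Zbtb20 rose. The largest fitted changes of Zbtb16 were in Cajal-Retzius-like nuclei, where its level was lowest, at 5.17, 4.13 and 4.16 CPM in WT, 15.0, 8.88 and 10.9 CPM in Het, and 13.2, 3.87 and 15.2 CPM in KO. These are 2 to 16 UMIs per animal. All Het animals were above WT, and KO 2 was not. The change was 1.41 in Het (SE 0.53, adjusted p = 1.00) and 1.39 in KO (SE 0.53, adjusted p = 0.38). With no upper limits on UMIs and genes per nucleus the KO change was 0.20 (adjusted p = 0.93).

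Zbtb12 passed the filter on low counts in 5 classes and 22 clusters and was not called in any of them by edgeR or DESeq2 (0 had an unadjusted p under 0.05). In excitatory neuron-like nuclei it was 4.75, 8.60 and 6.62 CPM in WT, 5.00, 8.02 and 8.58 CPM in Het, and 4.05, 6.32 and 7.83 CPM in KO. The replicate 1 animal was the lowest in each genotype, and the groups overlapped (KO change -0.11, SE 0.256, adjusted p = 0.92). An SE of this size could not show a change as small as that of Zbtb20.

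Lists around these genes were examined in the same fits. Of 44 other BTB zinc finger genes 39 were tested in excitatory neuron-like nuclei. None was called in KO, where 0.679% of all genes were (5 had an unadjusted p under 0.05, and DESeq2 called 0), with a median of -0.04 against -0.01 over all genes. Over the 7 classes 0 of 250 tests in KO and 0 of 250 in Het were called by edgeR or DESeq2, against 0 to 0.679% of all genes per class in KO and 0% in Het (11 and 3 with an unadjusted p under 0.05). Of 7 genes known to be repressed by Zbtb18 in the cortex (the Id genes, Neurog2, Rnd2 and Dcx) 6 were tested in the excitatory class, with a median of -0.05, and 0 of 37 tests over the classes were called in KO (3 with an unadjusted p under 0.05) or in Het (0). Of 11 cortical layer genes known to be repressed by Zbtb20 in the hippocampus, all were tested in the excitatory class, with a median of 0.03, and 0 of 76 tests were called in KO (7 with an unadjusted p under 0.05) or in Het (3). DESeq2 called 0 of both lists.

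A list of 6 Zbtb12 target genes that the study names held 1 called gene in KO excitatory neuron-like nuclei, where 0.679% of all genes were called. The study chose these on the same samples, so the list is not independent evidence. Efna4, an ephrin ligand of Eph receptors, was 11.3, 10.4 and 13.5 CPM in WT, 16.6, 13.3 and 13.7 CPM in Het, and 20.9, 18.7 and 18.9 CPM in KO excitatory neuron-like nuclei. KO animals were above all others, and Het and WT overlapped. Its KO change was 0.76 (SE 0.113, adjusted p = 0.0118), and DESeq2 called it too. The list's median was 0.08, and the other 5 genes were not called, with values from -0.11 to 0.16 in this class. Over the classes tested, 1 of 41 tests was called in KO and 0 of 41 in Het (5 and 2 with an unadjusted p under 0.05).

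Myt1l RNA was 1871, 2172 and 2035 CPM in WT, 2102, 2374 and 2278 CPM in Het, and 2376, 2671 and 2374 CPM in KO excitatory neuron-like nuclei, and its KO change was 0.31 (SE 0.084, adjusted p = 0.12). It was called higher in cluster 22 (0.43, SE 0.071, adjusted p = 0.0048) and in cluster 5 (0.49, SE 0.091, adjusted p = 0.0434), where Zbtb20 was called too, and also in clusters 4 (0.43) and 19 (0.66). In cluster 0 it was not called (0.31, SE 0.085, adjusted p = 0.15). With the replicate block Myt1l was called higher in cluster 0 as well (0.30, adjusted p = 0.0076), in clusters 2, 3, 16 and 17, and in the excitatory (0.31, adjusted p = 0.000215) and inhibitory neuron-like classes (0.30, adjusted p = 0.0227).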

How the data were processed

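The authors processed the libraries with the pipeline of the barcoding kit's maker (mm10) and deposited UMI values per gene and nucleus, used here as estimated counts (expected counts), of which 6.70 to 8.71% were not whole. No source used here states the origin of these fractional values. Of 261143 barcodes 200811 passed the study's limits (300 to 3000 genes, 800 to 6000 UMIs, no more than 1% of UMIs mitochondrial, log(genes)/log(UMIs) of at least 0.9). A doublet score was computed per library over all its barcodes, and the top 5% of these were removed, many of them outside the limits already. The 195951 nuclei kept had medians of 2518 UMIs and 1537 genes. Nuclei were clustered with scanpy 1.11.5 (3000 variable genes, 50 components, 20 neighbours, Leiden resolution 1). Names were rebuilt here from marker lists and need not match the study's. Counts were summed per animal and class or cluster, rounded, and tested with edgeR 4.0.16 (filterByExpr, TMM, genotype over all 9 animals). DESeq2 1.42.0 and the other alternatives are given at the end. Sex was not a term.

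The 4 genes and all lists were chosen with earlier results of these data known. The text names these genes, the 3 genes most like each by Pearson's r over clusters, called list genes (at most 4 per list and class) and Myt1l; 1 gene that the rule on likeness takes is not reported here. Leading genes of clusters are named as labels only. Positions come from GENCODE vM21, whose versioned identifiers equal those in the files.

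Replicate numbers are shared by the genotypes. The deviations of same-numbered animals correlated above 0.1 in all 9 pairs in 5 of 7 classes (0.23 to 0.72 in excitatory, 0.25 to 0.70 in inhibitory neuron-like nuclei), and in 5 of 9 pairs in Cajal-Retzius-like and hem-like nuclei. The sources used here do not say what the numbers share, such as a litter.

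On counts simulated for the excitatory class (18447 genes) the test recovered 84 of 100 genes changed by 0.5 and 100 of 100 changed by 1 on the log2 scale, with 16 false calls. For the difference between 2 classes (18679 genes) it recovered 32 and 98 of 100, with 5 false calls. The changed genes were drawn at levels above those of Zbtb12 and Zbtb16 in the excitatory class, so these counts do not apply to them. Animals were drawn independently, without the shared deviations of same-numbered animals. For the difference between 2 classes, both simulated sums took the levels, spread and depth of the excitatory class (13588331 to 22145777 UMIs per animal). They shared no effect of the animal. Intermediate progenitor-like nuclei held 2827346 to 5312580 UMIs per animal and Cajal-Retzius-like nuclei 600524 to 1074683. The recovery for differences therefore does not carry over to the comparisons reported.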

Additional observations from a re-analysis of the deposited data

How the results depend on the processing

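The number of member by class tests called in KO was 1. It became 2 with DESeq2, with no upper limits on UMIs and genes and in run 2 alone, 3 with no filter on low counts and with the replicate block, and 0 in run 1 alone, and it ranged from 0 to 2 when 1 animal was left out. Calls over all genes rose as well. Of 99176 class tests in KO, 91 were called higher and 56 lower in the main fit. These were 190 and 136 with DESeq2, and 683 and 609 with the replicate block. The number by cluster was 3, and became 8 with DESeq2, 11 with the replicate block (10 for Zbtb20 and 1 for Zbtb18) and 1 in run 1 alone, while the tests called over all genes went from 0.215% to 0.236% with DESeq2 and 1.01% with the block, with 2 to 7 when 1 animal was left out. In Het it was 0 by class in every alternative, and 0 by cluster except for 1 with the replicate block. Zbtb20 in excitatory neuron-like nuclei ranged from 0.36 in run 1 alone (adjusted p = 0.67) to 0.70, and from 0.39 to 0.49 (adjusted p 0.0132 to 0.077) without 1 animal. The difference of its KO change from that in intermediate progenitor-like nuclei (0.30) became called with no filter on low counts (0.29, adjusted p = 0.000199) and without KO 2 (0.38, adjusted p = 0.0164), and ranged from 0.23 to 0.38 without 1 animal.

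Zbtb20 in Cajal-Retzius-like nuclei was called with the replicate block (0.46, adjusted p = 0.0137), with DESeq2 (0.46, 0.0165), with no upper limits (0.50, 0.0198), in run 2 alone (0.48, 0.0421), with no filter (0.48, 0.000170) and without KO 3 (0.55, 0.0174). In inhibitory neuron-like nuclei it was called with the replicate block (0.30, 0.0229) and with no filter on low counts (0.30, 0.0136). The replicate block changed no call of a member in a class other than these for Zbtb20 in Cajal-Retzius-like and inhibitory neuron-like nuclei.

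Of 371 alternatives for 21 single values, 335 kept direction and side of the threshold, 8 became called, 9 lost a call and 19 changed sign, none of the last a called value. Signs changed for Zbtb12 in excitatory neuron-like nuclei in run 2 alone (0.0080) and when animals were left out (-0.33 to 0.15), and in inhibitory neuron-like nuclei without WT 1 (range -0.062 to 0.59). They changed for Zbtb16 in excitatory neuron-like nuclei (-0.10 to 0.20 without 1 animal) and in inhibitory neuron-like nuclei (-0.12 to 0.16; run 2 alone -0.0019). They changed for Zbtb18 in Cajal-Retzius-like nuclei (-0.32 to 0.079) and in inhibitory neuron-like nuclei with no doublet removal (-0.060), in run 1 alone (-0.051) and without 1 animal (-0.14 to 0.18). For Zbtb20 they changed in KO intermediate progenitor-like nuclei in run 1 alone (-0.010), in KO inhibitory progenitor-like nuclei (-0.025 to 0.14 without 1 animal), and in Het Cajal-Retzius-like nuclei with no upper limits (0.014) and without 1 animal (-0.10 to 0.039).

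Low counts of Zbtb12 in every class, and of Zbtb16 in Cajal-Retzius-like nuclei, limit what is seen. Counting error and the spread of 3 animals per genotype set the precision of all values.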
